A study of Mus musculus with 12 samples.

Results

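The T cell receptor (TCR) beta repertoires of the mesenteric lymph node (mLN) and the spleen were compared in WT mice of a T cell transfer colitis model. The 6 WT libraries, of 12 libraries in the series, were taken by their labelled genotype, and an mLN and a spleen library with the same replicate number (1, 3 or 4) were read as the organs of 1 mouse, which the labels do not state in words. This gave 3 of the 6 mice. The recipients were Rag2-/- mice, which make no B or T cells of their own. Each had received naive CD4+ CD25- CD44- CD62L+ T cells from a Prkaa1 f/f donor without Cre (WT, strain C57BL/6), and T cells were collected 6 weeks later. The KO mice, used here for 1 comparison, had received cells from Prkaa1 f/f CD4-Cre+ littermates. The floxed Prkaa1 alleles, which encode the AMPKα1 subunit, were therefore present in every donor, and the host and the time after transfer were the same in every group. All mice came from 1 experiment. Because only TCR beta libraries were analysed here, the sort for CD4+ cells could not be checked against other genes.

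A TCR beta chain is assembled in the developing T cell by joining a V, a D and a J segment. Bases are trimmed and added at the joints. The complementarity-determining region 3 (CDR3) spans the joint and contacts the presented peptide. Where many bases were added, it marks the descendants of 1 cell with little ambiguity. A clonotype was accordingly defined by the nucleotide sequence of its CDR3. Where few or no bases were added, cells of separate origin can share a CDR3, so a clonotype need not be 1 clone. The mLN drains the intestine, the inflamed organ in this model, whereas the spleen samples the blood, and T cells pass through both. In a host without lymphocytes, transferred naive T cells multiply in response to the empty niche and to intestinal bacteria, and a few clones can take a large part of the population.

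The mLN and spleen libraries of replicate 1 held 11987 and 11271 UMIs (unique molecular identifiers, each marking 1 cDNA molecule). Those of replicate 3 held 68536 and 493287 UMIs, and those of replicate 4 held 99487 and 436652. In replicate 1, 41.6% and 41.8% of the clonotypes were seen with 1 UMI, against 66.5% to 84.2% in the 4 libraries of the other mice. Replicate 1 thus stood apart in both organs alike, and results are given by mouse for that reason. Unless stated otherwise, values refer to 11271 UMIs drawn from each library, averaged over 50 draws. UMIs count transcripts and not cells, so that more cells of a clone and more TCR mRNA per cell cannot be told apart.

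The clonotypes that dominated the repertoires are shown first, because each is followed by name in both organs below. In each CDR3 below, capitals mark the bases between the end of the V and the start of the J alignment, that is, the D segment and the bases added at the joints. Names give the V and J segment. In replicate 1 the 4 largest clonotypes were:
TRBV13-3/TRBJ2-7: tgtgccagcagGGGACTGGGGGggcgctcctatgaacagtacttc
TRBV1/TRBJ2-1: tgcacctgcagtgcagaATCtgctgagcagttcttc
TRBV16/TRBJ2-7: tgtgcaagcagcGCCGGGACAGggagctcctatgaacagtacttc
TRBV16/TRBJ2-1: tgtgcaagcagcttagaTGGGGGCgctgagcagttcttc

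In replicate 3 the 3 largest were:
TRBV13-2/TRBJ2-4: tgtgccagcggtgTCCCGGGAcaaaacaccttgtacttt
TRBV23/TRBJ2-3: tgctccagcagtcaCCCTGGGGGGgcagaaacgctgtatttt
TRBV16/TRBJ2-5: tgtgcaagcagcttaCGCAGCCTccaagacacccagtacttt

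In replicate 4 the 4 largest were:
TRBV13-1/TRBJ1-1: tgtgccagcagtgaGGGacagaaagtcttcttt
TRBV3/TRBJ1-1: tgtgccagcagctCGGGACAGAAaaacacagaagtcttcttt
TRBV13-2/TRBJ1-2: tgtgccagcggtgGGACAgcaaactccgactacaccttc
TRBV17/TRBJ2-4: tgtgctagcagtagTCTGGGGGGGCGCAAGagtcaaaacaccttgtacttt

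All 11 were in frame without a stop codon. Their CDR3s ranged from 33 to 51 nucleotides, and the stretch between V and J from 3 bases in TRBV1/TRBJ2-1 and TRBV13-1/TRBJ1-1 to 16 in TRBV17/TRBJ2-4. Of the 15 clonotypes formed by the 5 largest of each mouse, none exceeded 0.0306% in a library of another WT mouse.

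To ask whether a clone takes the same share of both organs, the 5 most abundant clonotypes of each mouse were followed with their full counts and 95% Wilson confidence intervals. In replicate 1, TRBV13-3/TRBJ2-7 made up 16.7% (16.1 to 17.4%, 1887 UMIs) of the spleen and 2.51% (2.25 to 2.81%, 301 UMIs) of the mLN. It was the largest clonotype of the spleen and ranked 4 in the mLN, and its share was 6.67-fold higher in spleen (95% interval 5.90 to 7.56). TRBV16/TRBJ2-7 was likewise higher in spleen, at 6.41% against 3.14% in mLN (2.05-fold, 1.80 to 2.32).

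The other large clonotypes of this mouse were higher in mLN. TRBV1/TRBJ2-1, the largest there, took 7.02% (6.58 to 7.50%) of the mLN and 3.12% (2.82 to 3.46%) of the spleen, a 2.25-fold difference (1.98 to 2.55). TRBV16/TRBJ2-1 took 4.91% and 1.93% (2.54-fold, 2.17 to 2.98). TRBV3/TRBJ1-4 took 2.40% and 1.35% (1.78-fold, 1.46 to 2.18). All 5 of these clonotypes therefore differed between the libraries of replicate 1, in both directions, and 2 clonotypes that share the TRBV16 segment differed in opposite directions.

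In replicate 3 the largest clonotypes were closer in share. TRBV13-2/TRBJ2-4 ranked at the top in both organs, with 7.18% (6.99 to 7.38%) of the mLN and 4.33% (4.27 to 4.39%) of the spleen, 1.66-fold higher in mLN (1.61 to 1.71). TRBV23/TRBJ2-3 ranked second in both, with 4.72% and 2.91% (1.62-fold, 1.56 to 1.68). TRBV1/TRBJ1-1 went the other way, at 1.17% of the mLN and 1.98% of the spleen (1.70-fold higher in spleen, 1.58 to 1.83). Two-sided Fisher's exact tests at equal depth called these 3 but neither TRBV16/TRBJ2-5, at 1.85% and 1.74% (adjusted p = 0.723), nor TRBV1/TRBJ2-2, at 1.45% and 1.21% (adjusted p = 0.249). With the full counts the ratio of mLN to spleen was 1.06 (1.001 to 1.13) for TRBV16/TRBJ2-5 and 1.20 (1.12 to 1.28) for TRBV1/TRBJ2-2.

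In replicate 4, TRBV13-1/TRBJ1-1 took 7.68% (7.60 to 7.76%) of the spleen and 1.64% (1.56 to 1.72%) of the mLN. It was 4.69-fold higher in spleen (4.46 to 4.93) and ranked 1 there and 5 in mLN. TRBV3/TRBJ1-1, second in both organs, was also higher in spleen, at 3.20% against 2.10% (1.52-fold, 1.45 to 1.59). TRBV13-2/TRBJ1-2 and TRBV5/TRBJ2-2 were higher in mLN, at 2.82% against 1.38% (2.04-fold, 1.95 to 2.13) and 1.99% against 0.986% (2.01-fold, 1.91 to 2.12). TRBV17/TRBJ2-4 lay at 1.68% in mLN and 1.79% in spleen and was not called (Fisher's exact test, adjusted p = 0.340, ratio of mLN to spleen 0.939, 0.890 to 0.990 with the full counts).

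**Figure D1:**
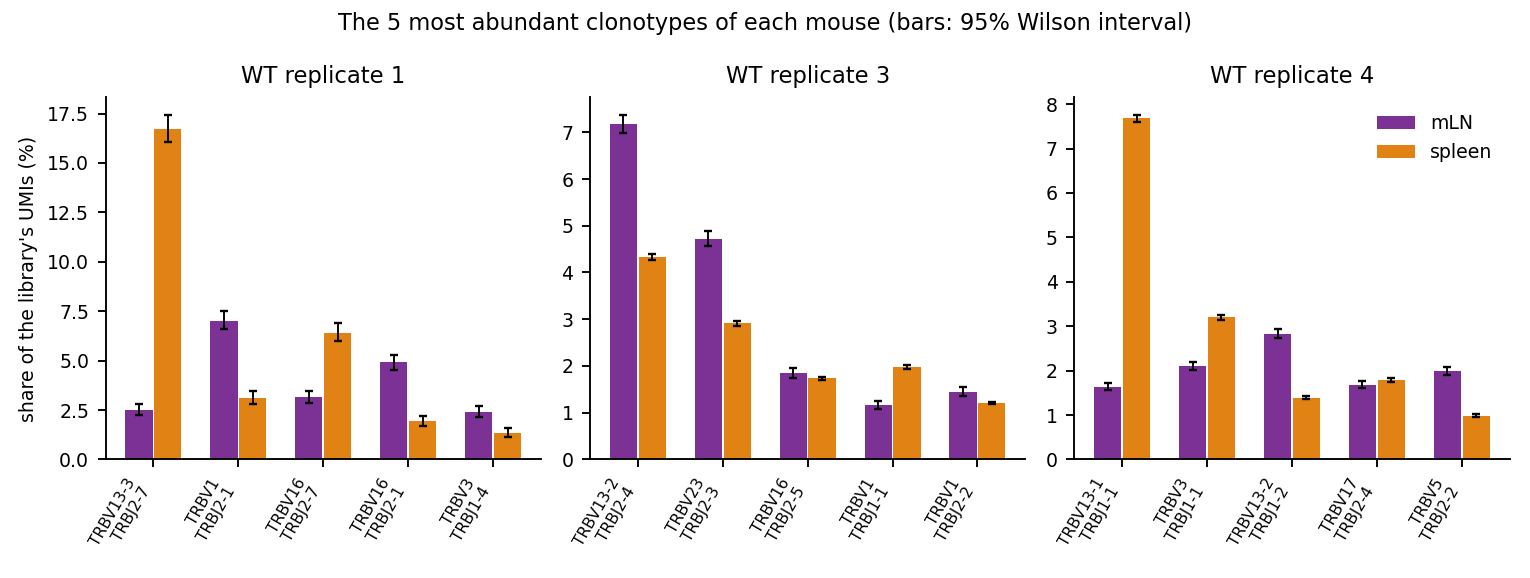
Share of the library's UMIs (vertical axis, in percent, from the full counts) for the 5 most abundant clonotypes of each mouse, in mLN (purple) and spleen (orange), with 95% Wilson intervals as error bars. The TRBV13-3/TRBJ2-7 clonotype of replicate 1 (16.7% of the spleen, 2.51% of the mLN) and the TRBV13-1/TRBJ1-1 clonotype of replicate 4 (7.68% and 1.64%) show the widest gaps, both with the higher bar in spleen.

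These intervals and tests compare 2 libraries and cover counting error only. No organ of a mouse was sequenced again, so a difference between organs cannot be told apart from one between libraries of the same organ. Across the 3 mice, 12 of the 15 clonotypes were called different, 7 of them higher in mLN and 5 higher in spleen. Of all clonotypes tested further below, 31.6%, 17.7% and 26% were called in replicates 1, 3 and 4. Among those counted 100 times or more in mLN plus spleen, the share was 70.7%, 51.6% and 57.1%. Large clonotypes are called more readily, so 12 of 15 does not mark uneven sharing as particular to the largest. In replicates 1 and 4 the largest clonotype of the spleen was the one that differed most among the 5.

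Most UMIs of either organ nevertheless belonged to clonotypes found in both, although many clonotypes were found in 1 organ. Of the clonotypes found in mLN at equal depth, 54.1% (replicate 1), 44.0% (replicate 3) and 34.9% (replicate 4) were also found in spleen. Of the spleen clonotypes, 64.2%, 46.0% and 42.4% were found in mLN. Clonotypes found in both organs carried 91.6%, 87.3% and 80.7% of the mLN UMIs and 94.6%, 87.8% and 86.5% of the spleen UMIs. Between the mLN of 1 mouse and the spleen of another, clonotypes found in both carried 0.543% to 6.55% of the mLN UMIs. Of the spleen UMIs they carried 0.777% to 21.4%.

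Sharing followed the size of the clonotype. Clonotypes with 1 UMI in mLN were found in spleen in 27.4%, 17.9% and 12.9% of cases in replicates 1, 3 and 4. The share was 81.0%, 89.4% and 83.4% at 4 to 9 UMIs and 98.9%, 99.2% and 97.3% at 10 to 29 UMIs. From 100 UMIs on, every clonotype of either organ was found in the other in all 3 mice. Clonotypes found only in 1 organ were small. The largest had on average 11.4, 11.2 and 18.9 UMIs in mLN and 16.1, 16.2 and 17.7 in spleen. A clonotype missing from an organ was not detectable at this depth, which does not show it to be absent.

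**Figure D2:**
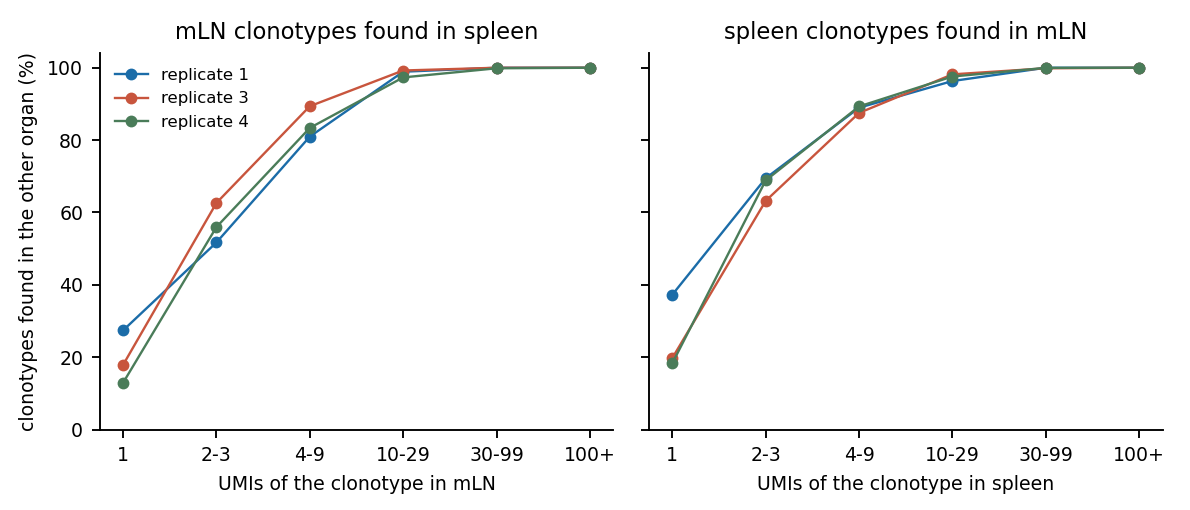
Percent of the clonotypes of one organ that were found in the other organ of the same mouse (vertical axis), by the number of UMIs of the clonotype (horizontal axis), for mLN clonotypes (left) and spleen clonotypes (right), with 1 line a mouse. In mLN the lines start at 12.9% to 27.4% for clonotypes of 1 UMI and reach 97.3% to 99.2% at 10 to 29 UMIs.

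In the full counts, of the 10 largest clonotypes of the mLN, 6, 8 and 6 were among the 10 largest of the spleen, and the lowest rank that any of the 10 took in the spleen was 33, 55 and 23. In the other direction the lowest ranks in the mLN were 57, 53 and 40. No clonotype among the 10 largest of either organ was missing from the other. At equal depth, 6, 7.48 and 6.04 of the 10 largest and 67.9, 70.9 and 64.3 of the 100 largest were in common on average over draws. Across the clonotypes found in both organs, 672, 888 and 910 in number, the log10 counts of mLN and spleen correlated at r = 0.741, 0.761 and 0.719 (Spearman's rho 0.659, 0.690 and 0.649). Clonotypes are not independent replicates, and those missing from an organ did not enter.

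The Morisita-Horn index, which weighs clonotypes by their share and is 1 for identical and 0 for disjoint repertoires, was 0.487 in replicate 1, 0.867 in replicate 3 and 0.651 in replicate 4. Its mean was 0.668 ± 0.191 (SD, n = 3 mice). Between the mLN of 1 mouse and the spleen of another it ranged from 0.000638 to 0.00483. The matching of organs by replicate number gave the highest mean of the 6 possible matchings (one-sided exact permutation test, p = 0.167, the smallest this design allows). Within an organ, different mice overlapped as little, at 0.00178 to 0.00445 between mLNs and 0.000839 to 0.00147 between spleens.

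When the 5 named clonotypes of each mouse were left out and 7939 UMIs drawn, an alternative chosen after their values had been seen, the index was 0.713, 0.804 and 0.805 (mean 0.774). It was thus higher than with them in replicates 1 and 4 and lower in replicate 3. A share of 43.1%, 36.4% and 42.7% of the UMIs would have had to change clonotype to turn one organ's repertoire into the other's. The 5 largest clonotypes contributed 29.5%, 8.06% and 11.5% of this distance. Clonotypes with fewer than 10 UMIs over both organs, for which counting error is large, contributed 21.6%, 42.6% and 45.2%.

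**Figure D3:**
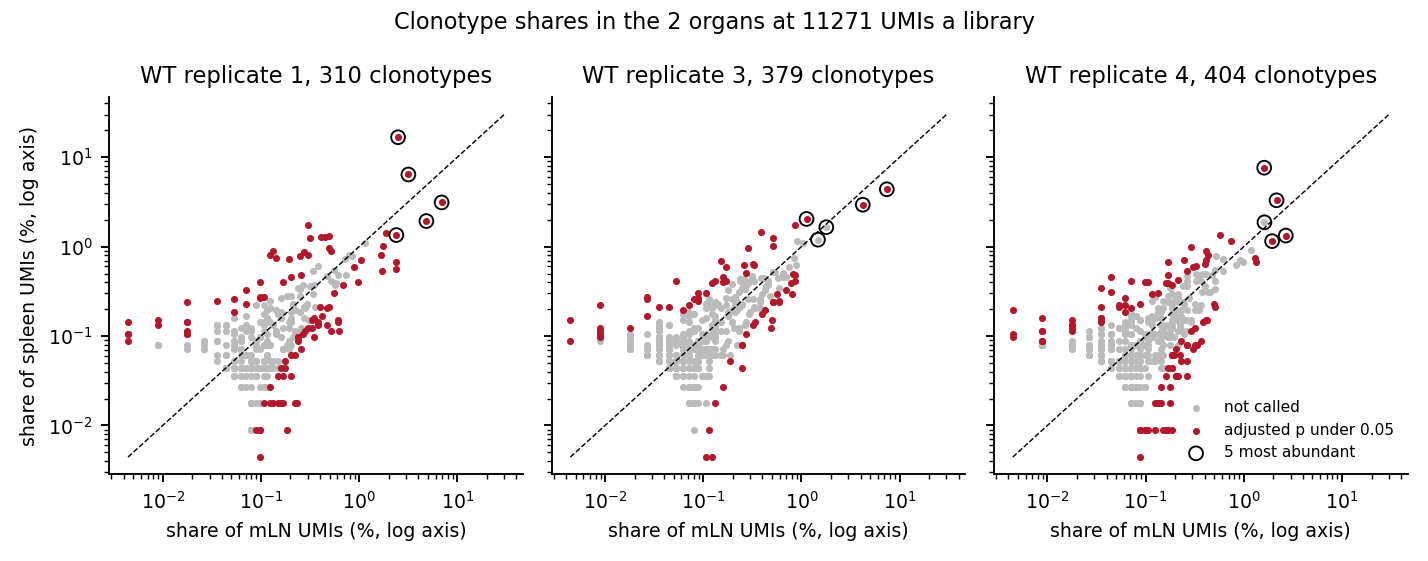
Share of mLN UMIs (horizontal) against share of spleen UMIs (vertical), both in percent on log axes, for every clonotype with at least 10 UMIs over both organs in a single draw of 11271 UMIs a library, with 1 panel a mouse. Red points passed Fisher's exact test at an adjusted p under 0.05, circles mark the 5 most abundant clonotypes, the dashed line marks equal shares, and a count of 0 is drawn at 0.5 UMI. Points lie on both sides of the line in each mouse (58 red points below and 40 above it in replicate 1, 29 and 38 in replicate 3, 53 and 52 in replicate 4).

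To count clones that differed in share between the organs, each clonotype with at least 10 UMIs over both organs was tested. In replicate 1, 98 of 310 clonotypes (31.6%) were called by two-sided Fisher's exact test at a Benjamini-Hochberg adjusted p under 0.05, 58 of them (18.7% of those tested) higher in mLN and 40 (12.9%) higher in spleen. In replicate 3, 67 of 379 (17.7%) were called, 29 (7.65%) higher in mLN and 38 (10%) in spleen. In replicate 4, 105 of 404 (26%) were called, 53 (13.1%) in mLN and 52 (12.9%) in spleen. The mean share called was 25.1 ± 7.01% (SD, n = 3 mice). At an unadjusted p under 0.05 the counts were 136, 105 and 132.

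The share called was 15.5%, 6.29% and 15.7% at 10 to 19 UMIs over both organs and 70.7%, 51.6% and 57.1% from 100 UMIs on. The median absolute log2 ratio between organs was 1.06, 0.74 and 1.08 at 10 to 19 UMIs and 1.01, 0.73 and 0.67 from 100 UMIs on. Counting error widens these ratios more at low counts, and no allowance was made for it. The medians therefore cannot show whether unevenness changes with the size of a clonotype. Called clonotypes made up 53.6%, 30.4% and 28.5% of the mLN UMIs and 60.3%, 30.9% and 36.2% of the spleen UMIs.

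The clonotypes with the most uneven shares are shown next, because they mark the largest departures from equal sharing. They were those with the largest ratios among called clonotypes with a mean share of at least 0.1%. Because counts of the same libraries both chose and measured them, their ratios tend to be overstated. The intervals given for them make no allowance for this choice. The clonotype furthest toward mLN in each mouse was:
TRBV15/TRBJ2-7 (replicate 1): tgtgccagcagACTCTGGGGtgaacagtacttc
TRBV15/TRBJ2-1 (replicate 3): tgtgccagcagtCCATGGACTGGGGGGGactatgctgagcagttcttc
TRBV13-3/TRBJ2-3 (replicate 4): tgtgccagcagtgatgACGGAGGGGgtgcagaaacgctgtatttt

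The clonotype furthest toward spleen in each mouse was:
TRBV13-2/TRBJ2-5 (replicate 1): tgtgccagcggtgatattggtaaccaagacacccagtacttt
TRBV31/TRBJ2-1 (replicate 3): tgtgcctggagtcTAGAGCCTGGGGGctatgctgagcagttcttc
TRBV13-3/TRBJ2-7 (replicate 4): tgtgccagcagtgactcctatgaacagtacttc

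The TRBV13-2/TRBJ2-5 and TRBV13-3/TRBJ2-7 sequences carry no capitals, as their V and J alignments met or overlapped and left no base to the D segment. In replicate 4, TRBV13-3/TRBJ2-3 reached 0.219% of the mLN (218 UMIs) and 0.0112% of the spleen (49 UMIs), 19.5-fold higher in mLN (95% interval 14.3 to 27.2). TRBV13-3/TRBJ2-7 of the same mouse reached 0.456% of the spleen and 0.0482% of the mLN, 9.46-fold higher in spleen (7.11 to 12.9). Clonotypes with the same V segment in the same mouse thus lay at opposite ends.

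In replicate 3, TRBV31/TRBJ2-1 reached 0.24996% of the spleen (1233 UMIs) and 0.0131% of the mLN (9 UMIs), a 19.03-fold difference (9.99 to 41.7), and TRBV15/TRBJ1-1 was 8.60-fold higher in spleen (5.76 to 13.5). Toward mLN the ratios of this mouse were smaller, at 5.70 (4.63 to 7.02) for TRBV15/TRBJ2-1 and 3.97 (3.48 to 4.52) for TRBV20/TRBJ2-4. In replicate 1 the counts were low. TRBV15/TRBJ2-7 had 29 UMIs in mLN and 2 in spleen (13.6-fold, 3.45 to 118), and TRBV13-2/TRBJ2-7 had 26 and 2 (12.2-fold, 3.06 to 106). TRBV13-2/TRBJ2-5 had 2 and 27 (14.4-fold higher in spleen, 3.61 to 125), and TRBV13-3/TRBJ2-3 had 4 and 28 (7.44-fold higher in spleen, 2.60 to 29.2). The remaining clonotypes named in replicate 4 were TRBV13-3/TRBJ2-1, 9.45-fold higher in mLN (7.34 to 12.2), and TRBV16/TRBJ1-1, 7.51-fold higher in spleen (5.34 to 10.9). None of these 12 clonotypes was missing from the other organ in the full counts.

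Of the features of the called clonotypes, mean CDR3 length was 41.4, 41.6 and 40.6 nucleotides among those higher in mLN and 42.8, 41.6 and 42.2 among those higher in spleen, in replicates 1, 3 and 4. These values are a description of clonotypes chosen by their difference, with no test. TRBJ1 segments were used by 39.7%, 27.6% and 37.7% of the former and 27.5%, 44.7% and 32.7% of the latter, in no fixed order. The TRBV13 family (Vbeta8 in the older nomenclature) was used by 27.6%, 34.5% and 30.2% of clonotypes higher in mLN and 37.5%, 21.1% and 23.1% of those higher in spleen. Among tested clonotypes that were not called, mean length was 41.2, 41.4 and 41.3 nucleotides, TRBJ1 was used by 33.96%, 30.8% and 34.4%, and TRBV13 by 25%, 21.2% and 20.1%.

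Next, the shape of the repertoires was compared. Richness, the number of clonotypes in 11271 UMIs, was 1242 in mLN and 1047 in spleen in replicate 1, 2019 and 1931 in replicate 3, and 2604 and 2144 in replicate 4. It was higher in mLN in 3 of 3 mice, by 248 ± 191 clonotypes (mean ± SD of the paired differences). The two-sided exact sign-flip test gave p = 0.25, the smallest that its 8 patterns allow, and an adjusted p of 1 over the 14 measures of this family. Groups overlapped widely, since mice differed more (1955 ± 683 in mLN, 1707 ± 582 in spleen) than organs did. The difference was also positive in 3 of 3 mice without the 5 named clonotypes, at 7939 UMIs (191 ± 112). Without clonotypes of 1 UMI it was 50.1 clonotypes and no longer had the same sign in every mouse (exact sign-flip test, p = 0.75). These clonotypes were removed from the full libraries, before drawing. They held 4.42%, 5.97% and 8.90% of the mLN UMIs and 3.89%, 3.84% and 6.05% of the spleen UMIs. The filter thus acted unequally on the organs, and 50.1 cannot show that the difference rests on them.

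Measures that weigh the large clones had no common direction. Clonality, which is 0 when all clonotypes are equally frequent and approaches 1 when a single clonotype dominates, was 0.220 in mLN and 0.274 in spleen in replicate 1, 0.193 and 0.177 in replicate 3, and 0.158 and 0.193 in replicate 4. The paired difference was −0.0248 ± 0.0361 (exact sign-flip test, p = 0.5). The 10 largest clonotypes took 29.99% of the mLN and 36.6% of the spleen in replicate 1, 21.1% and 19.02% in replicate 3, and 15.9% and 20.3% in replicate 4, a difference of −3.01 ± 4.51 percentage points (exact sign-flip test, p = 0.5). The largest clonotype took 7.02% and 16.7%, 7.18% and 4.34%, and 2.82% and 7.74%, a difference of −3.94 ± 6.33 (exact sign-flip test, p = 0.5).

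The effective number of clonotypes, that is, the number of equally frequent clonotypes that would give the same inverse Simpson index, was 72.7 in mLN and 27.1 in spleen in replicate 1, 97.2 and 157 in replicate 3, and 231 and 100 in replicate 4. The difference of 39.1 ± 95.3 was smaller than its spread (exact sign-flip test, p = 0.75). Replicate 3 thus ran against the other mice in all of these measures except richness. With the 5 named clonotypes of each mouse removed, clonality was 0.138 ± 0.0206 in mLN and 0.147 ± 0.0170 in spleen, lower in mLN in each mouse (difference −0.00872 ± 0.00623, exact sign-flip test, p = 0.25), and the difference in the share of the 10 largest shrank to −0.168 ± 2.06 percentage points (exact sign-flip test, p = 1).

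**Figure D4:**
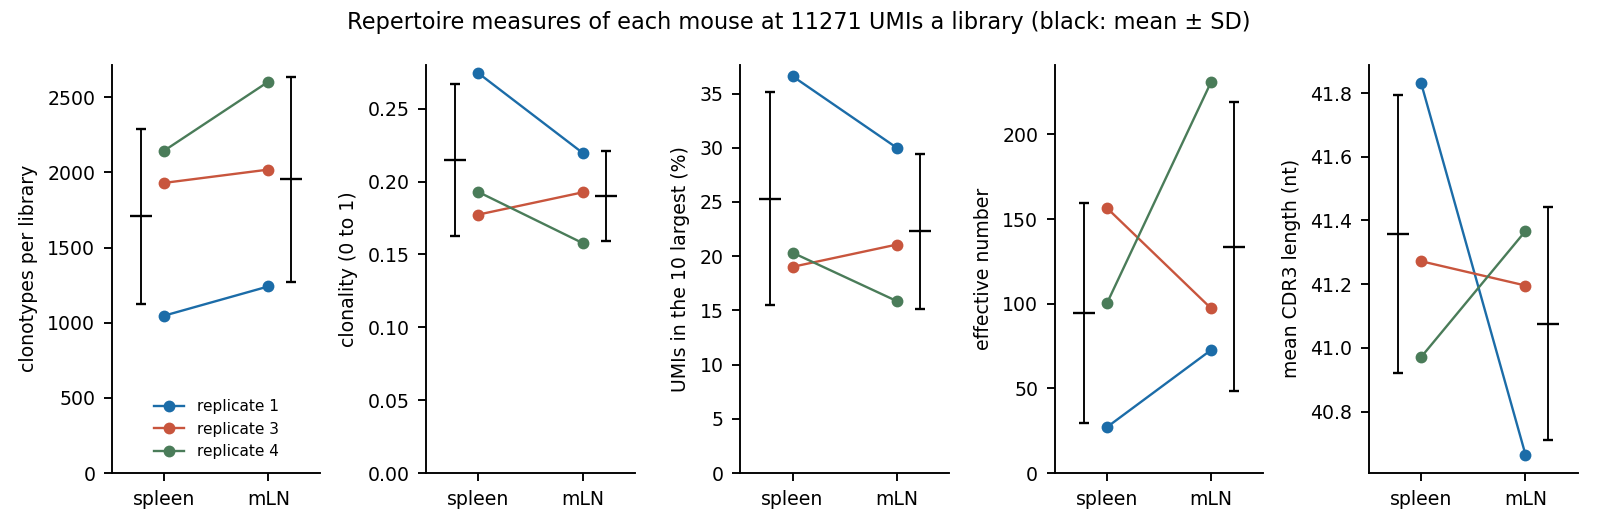
Richness, clonality, share of the 10 largest clonotypes, effective number of clonotypes and mean CDR3 length in spleen and mLN, each on its own vertical axis, at 11271 UMIs a library. Coloured lines join the organs of a mouse, and black bars give the mean ± SD of 3 mice. All 3 lines rise toward mLN for richness, whereas replicate 3 runs against the others for clonality, the share of the 10 largest and the effective number. The axis for CDR3 length does not start at 0.

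CDR3 features were weighted by UMIs. Mean CDR3 length was 40.7 nucleotides in mLN and 41.8 in spleen in replicate 1, 41.2 and 41.3 in replicate 3, and 41.4 and 41.0 in replicate 4. The paired difference of −0.282 ± 0.800 nucleotides was smaller than its spread (exact sign-flip test, p = 0.75). The 45-nucleotide TRBV13-3/TRBJ2-7 clonotype was prominent in the spleen of replicate 1, as was the 33-nucleotide TRBV13-1/TRBJ1-1 clonotype in that of replicate 4. Without the 5 named clonotypes the differences narrowed to −0.325, −0.0580 and −0.100, each of them toward shorter CDR3s in mLN (mean −0.161 ± 0.144, n = 3 mice, exact sign-flip test, p = 0.25). With each clonotype counted once the mean was 41.6 in mLN and 41.5 in spleen, a difference of 0.0551 ± 0.0958 (exact sign-flip test, p = 0.5).

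With each in-frame clonotype counted once, 32.6 ± 1.005% of the mLN and 31.6 ± 1.03% of the spleen clonotypes had a CDR3 of 42 nucleotides, the most frequent length. Lengths of 39 and 45 nucleotides followed. The former held 22.3 ± 2.46% of the mLN and 22.5 ± 1.55% of the spleen clonotypes, and the latter 21.1 ± 0.577% and 21.5 ± 0.465%. The 42-nucleotide class was larger in mLN in 3 of 3 mice, by 1.05 ± 0.588 percentage points, and the 45-nucleotide class was smaller in 3 of 3 mice, with a difference of −0.418 ± 0.135 (exact sign-flip test, p = 0.25 each, unadjusted, over 12 lengths).

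The gap between V and J, which holds the D segment and the added bases, averaged 8.18 ± 0.303 bases in mLN and 8.39 ± 0.237 in spleen (difference −0.218 ± 0.493, exact sign-flip test, p = 0.75). Counted once per clonotype it was shorter in mLN in 3 of 3 mice, at 8.99 and 9.07 bases (difference −0.0810 ± 0.0546, exact sign-flip test, p = 0.25). TRBD1 made up 51.1% of the unambiguous D calls in mLN and 43.1% in spleen in replicate 1 but 50.7% and 50.9% in replicate 3, and 52.2% and 51.5% in replicate 4.

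Rearrangements that cannot encode a receptor were compared next. Some T cells carry such a rearrangement on their other allele and transcribe it. Out-of-frame CDR3s took 4.48% of the mLN and 6.18% of the spleen UMIs in replicate 1, 5.48% and 4.995% in replicate 3, and 5.74% and 4.72% in replicate 4 (difference −0.0663 ± 1.44 percentage points, exact sign-flip test, p = 1). In-frame CDR3s with a stop codon took 0.215% and 0.0532%, 0.474% and 0.444%, and 0.737% and 0.718%, higher in mLN in 3 of 3 mice by 0.0702 ± 0.0791 (exact sign-flip test, p = 0.25). The differences of replicates 3 and 4 (0.0303 and 0.0190) were smaller than the largest SD between draws (0.0829), and without clonotypes of 1 UMI the mean difference was 0.0156 (exact sign-flip test, p = 1). That filter was set on the full libraries and acted unequally on the organs.

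Amino-acid features of the CDR3 were compared as well, among them a hydrophobic pair and a central cysteine, which the literature associates with self-reactivity. A hydrophobic pair (A, I, L, M, F, W, V or C) at CDR3 positions 6 and 7 was carried by 2.34 ± 0.337% of productive mLN UMIs and 2.33 ± 0.889% of productive spleen UMIs. A cysteine inside the CDR3, away from its ends, was carried by 0.270 ± 0.173% and 0.285 ± 0.109%. Mean net charge was −0.764 ± 0.151 and −0.640 ± 0.0501. By mouse it was −0.925 in mLN and −0.583 in spleen in replicate 1, −0.626 and −0.676 in replicate 3, and −0.742 and −0.662 in replicate 4, and without replicate 1 the difference went from −0.124 to −0.0152. For each of these 3 features the difference between organs was within its spread (two-sided exact sign-flip tests, p = 1, 1 and 0.5).

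Clonotypes found in both organs had a mean gap between V and J of 8.76, 8.77 and 8.396 bases, against 8.94, 9.35 and 9.42 for clonotypes found only in mLN and 9.07, 9.62 and 9.71 for those found only in spleen. Of the clonotypes in both organs, 11.4%, 9.51% and 9.15% were out of frame, against 16.8%, 14.6% and 11.3% in mLN only and 20.96%, 13.3% and 10.98% in spleen only. Clonotypes of 1 UMI made up 66.5% to 89.2% of those in a single organ. These values are a description without a test, and the part of clonotype size in them was not tested.

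Between mice, productive CDR3 amino-acid sequences also seen in another WT mouse took 26.2% of the mLN and 34.3% of the spleen UMIs in replicate 1, 12.2% and 9.52% in replicate 3, and 19.6% and 26.7% in replicate 4. By clonotypes the shares were 5.39 ± 0.568% in mLN and 5.15 ± 1.19% in spleen, a difference of 0.240 ± 1.05 (exact sign-flip test, p = 1). The weight by UMIs includes the dominant clonotypes of a mouse that were seen at trace levels in the libraries of another. Within a mouse, 1.83%, 2.65% and 1.87% of the productive clonotypes found only in mLN encoded an amino-acid sequence that another clonotype of the spleen also encoded, and 3.68%, 1.37% and 1.55% of those found only in spleen did so with the mLN.

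V segments, which encode the first 2 complementarity-determining regions, lie in a cluster on chromosome 6 (RefSeq annotation of GRCm38), upstream of the D and J segments, except TRBV31, which lies downstream. With the mouse as a block, 0 of 24 V segments (0%) passed edgeR's quasi-likelihood test of mLN against spleen, with the adjusted p required to be under 0.05. The unadjusted p was under 0.05 for 3 of them in edgeR and for 6 in DESeq2, which called 0. The median log2 fold change of mLN over spleen was 0.11, so that values are to be read against that shift. Of the 24 V segments, 4 were higher in mLN in 3 of 3 mice. TRBV22 was the only one higher in mLN in no mouse, with 0 UMIs in both organs of replicate 1. V usage varied with the mouse in both organs, and the deviations of a mouse's organs from the organ means correlated at 0.799 to 0.851.

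TRBV13-3 had the smallest p. It took 7.61%, 3.78% and 6.17% of the mLN UMIs and 22.9%, 4.78% and 5.20% of the spleen UMIs (log2 fold change −0.55, SE 0.24, edgeR adjusted p = 0.309). In replicate 1 the largest TRBV13-3 clonotype alone made up 16.7% of the spleen. Leaving out the 5 named clonotypes of each mouse gave −0.18 (edgeR adjusted p = 0.629), and counting clonotypes per segment gave −0.01 (edgeR adjusted p = 0.981). Without replicate 1 it was −0.04.

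TRBV12-1, of the former Vbeta5 family, took 1.26%, 1.15% and 1.38% of the mLN UMIs and 0.940%, 0.876% and 0.781% of the spleen UMIs. It was 1 of the 4 V segments higher in mLN in 3 of 3 mice (log2 fold change 0.53, SE 0.24, edgeR adjusted p = 0.309). By clonotypes the difference was 0.26 (edgeR adjusted p = 0.151). TRBV29 took 3.80%, 0.769% and 1.53% of the mLN and 1.37%, 0.802% and 1.30% of the spleen (log2 fold change 0.51, SE 0.24, edgeR adjusted p = 0.309), and without replicate 1 it was 0.07. TRBV24 (0.36, SE 0.26) and TRBV30 (−0.42, SE 0.30), both at or below 1.20% of every library, had an edgeR adjusted p of 0.707.

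Of the other TRBV13 segments, TRBV13-2, the most used V segment of both organs by the mean of 3 mice but not in every library, took 12.1%, 16.4% and 12.1% of the mLN and 10.6%, 12.7% and 10.9% of the spleen, higher in mLN in 3 of 3 mice (log2 fold change 0.24, SE 0.24, edgeR adjusted p = 0.856). Without the 5 named clonotypes it was 0.04. TRBV13-1 had a log2 fold change of −0.23 (SE 0.24), which turned to 0.07 without the 5 named clonotypes, among them the TRBV13-1/TRBJ1-1 clonotype of replicate 4. For TRBV12-2 it was 0.09 (SE 0.26), below the median shift of all V segments. The edgeR adjusted p was 0.856 for TRBV13-1 and TRBV12-2. By clonotypes per segment, 0 of 23 V segments passed, 5 had an unadjusted p under 0.05, and TRBV24 came closest (log2 fold change 0.40, edgeR adjusted p = 0.0564). Clonotypes were counted here in the full libraries. Those of replicates 3 and 4 held 6153 and 11767 clonotypes in mLN against 23950 and 31378 in spleen. At equal depth TRBV24 took 1.08%, 1.30% and 1.13% of the mLN clonotypes and 0.860%, 1.20% and 1.03% of the spleen clonotypes.

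**Figure D5:**
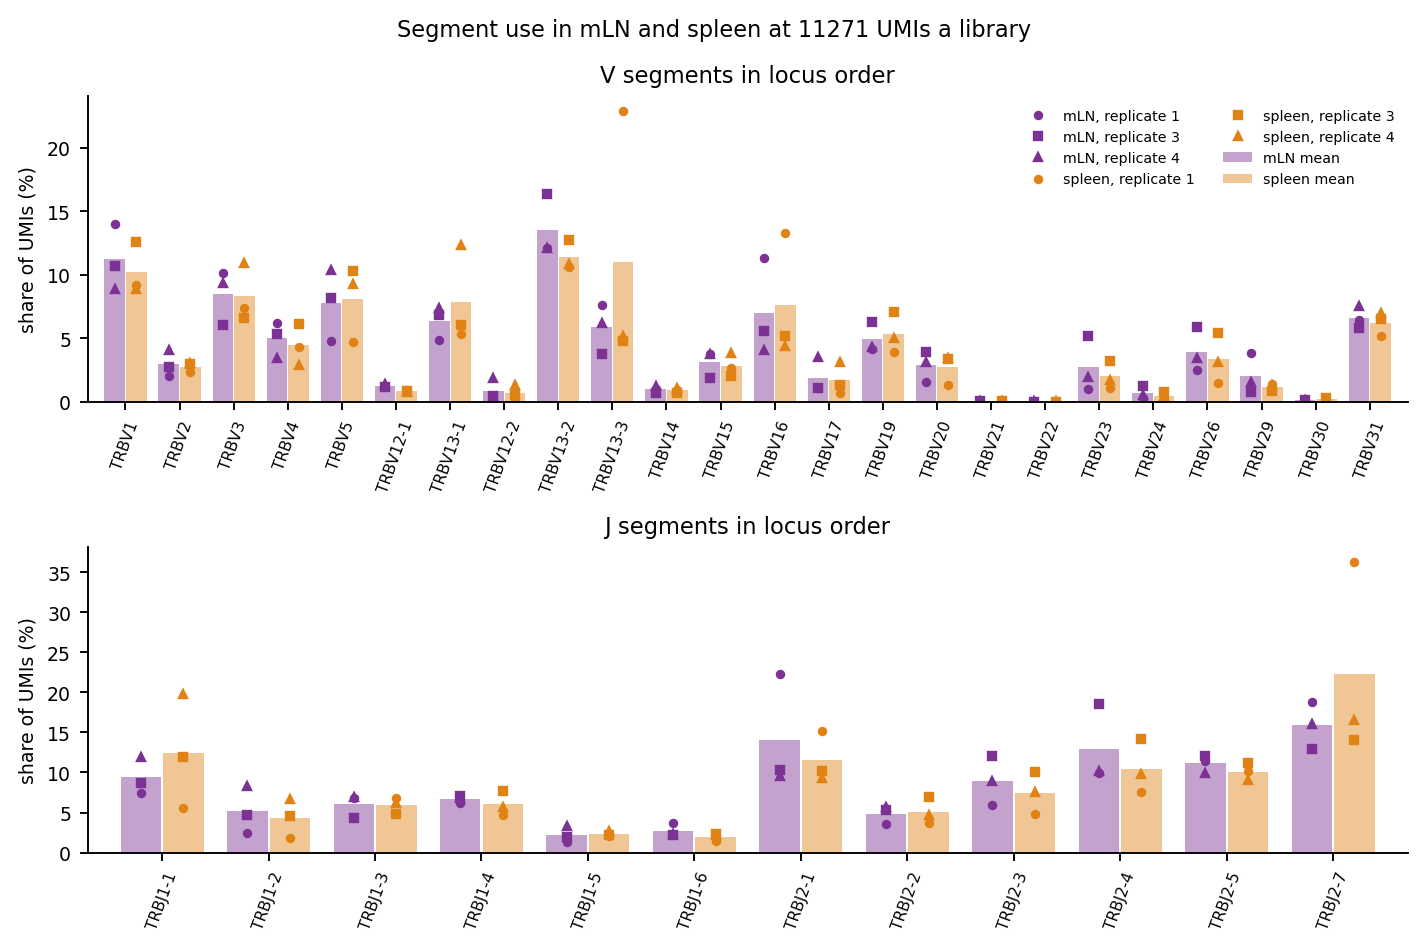
Share of UMIs (vertical axis, in percent) taken by each tested V segment (top) and J segment (bottom), in locus order, for mLN (purple) and spleen (orange) at 11271 UMIs a library. Bars give the mean and symbols the 3 mice. Symbols of one mouse tend to lie at the same height in both organs, and the widest gaps are the spleen values of replicate 1 for TRBV13-3 (22.9%) and TRBJ2-7 (36.3%).

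Among J segments 0 of 12 (0%) differed at an edgeR adjusted p under 0.05, 1 had an unadjusted p under 0.05, and DESeq2 called 1. The median log2 fold change was 0.16. Of the 12 J segments, 6 went the same way in all 3 mice, 5 of them higher in mLN and 1 lower. TRBJ2-3 had the smallest p. It took 5.88%, 12.1% and 8.93% of the mLN and 4.77%, 10.01% and 7.57% of the spleen, higher in mLN in 3 of 3 mice by 1.51 ± 0.492 percentage points (log2 fold change 0.27, SE 0.06, edgeR adjusted p = 0.115). DESeq2 called TRBJ2-3 (log2 fold change 0.26, DESeq2 adjusted p = 1.38e-11), where it was given a dispersion of 0.000681, the smallest of the 12 segments. By clonotypes the log2 fold change of TRBJ2-3 was 0.08 (edgeR adjusted p = 0.338), and without the 5 named clonotypes it was 0.13 (edgeR adjusted p = 0.275).

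TRBJ2-4 took 9.97%, 18.6% and 10.2% of the mLN and 7.51%, 14.2% and 9.78% of the spleen (log2 fold change 0.29, SE 0.11, edgeR adjusted p = 0.367). For TRBJ1-2 the shares were 2.44%, 4.70% and 8.30%, and 1.80%, 4.58% and 6.70% (0.25, SE 0.11, edgeR adjusted p = 0.369). Both were higher in mLN in 3 of 3 mice. Without the 5 named clonotypes the log2 fold changes were 0.18 for TRBJ2-4 and 0.10 for TRBJ1-2. TRBJ2-7 was lower in mLN in 3 of 3 mice, with 18.8%, 12.9% and 16.1% against 36.3%, 14.0% and 16.6% (log2 fold change −0.37, SE 0.27, edgeR adjusted p = 0.474). In the spleen of replicate 1 1 TRBJ2-7 clonotype held 16.7% of all UMIs. The log2 fold change of TRBJ2-7 was −0.12 without the 5 named clonotypes and −0.06 by clonotypes. The TRBJ1 cluster as a whole took 28.0%, 28.8% and 39.7% of the mLN and 22.3%, 33.5% and 43.2% of the spleen, a difference of −0.833 ± 5.65 percentage points in no fixed direction (exact sign-flip test, p = 1). TRBJ1-1 took 7.50%, 8.70% and 11.97% of the mLN and 5.51%, 11.9% and 19.8% of the spleen (log2 fold change −0.25, SE 0.26, edgeR adjusted p = 0.524). Without replicate 1 it was called (edgeR adjusted p = 0.000770). In the spleen of replicate 4 the largest TRBJ1-1 clonotype alone held 7.74% of all UMIs. With all 3 mice, the log2 fold change of TRBJ1-1 was −0.10 without the 5 named clonotypes (edgeR adjusted p = 0.572). By clonotypes it was −0.26 (edgeR adjusted p = 0.290).

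Finally, the organ differences were compared with those of KO mice at 2488 UMIs, the total of the smallest of the 12 libraries. Richness in mLN minus that in spleen was 85.8 ± 63.4 clonotypes in WT and −158 ± 309 in KO (two-sided exact permutation test over 20 assignments, p = 0.3). Mean CDR3 length differed by −0.286 ± 0.777 nucleotides in WT and −0.142 ± 0.590 in KO (exact permutation test, p = 0.7), and the share of the 10 largest clonotypes by −3.03 ± 4.71 and 3.32 ± 16.5 percentage points (exact permutation test, p = 0.6). Over the 14 measures the adjusted p of the exact permutation test ranged from 0.891 to 0.9, in a design whose smallest unadjusted p is 0.1.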

How the data were processed

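Per their methods, the authors added UMIs to TCR beta cDNA by 5′ RACE from constant-region primers, sequenced on a MiSeq, collapsed UMIs with MIGEC and assembled clonotypes with MiXCR. Versions and the V/D/J reference are not given in the sources used here. The deposited count per clonotype was taken as UMIs. The deposited fraction equals that count over the library total and was not used further. Errors left after UMI collapsing would add small clonotypes. Entries with the same CDR3 nucleotides were summed, and 11271 UMIs (the smallest WT library) were drawn from each library 50 times (numpy 2.4.6). The SD between draws was at most 32.4 clonotypes for richness.

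Organs were compared by exact sign-flip tests over 3 mice, with Benjamini-Hochberg adjustment over 14 measures. Clonotypes were compared by Fisher's exact test in a single draw (log2 ratios after adding 0.5 UMI). V and J segments were compared on full counts by edgeR, version 4.0.16, with quasi-likelihood, library totals and the mouse as block. The filter was 10 or more UMIs in 3 or more of the libraries. DESeq2 1.42.0 was an alternative. Statistics were tested on simulated data, for segments with larger changes than those observed and no effect of the mouse. That does not show how well small changes would be found. Organs were paired by the replicate number that their labels share, read as 1 mouse. V usage deviations, as log2(percent + 0.1), correlated at 0.799, 0.851 and 0.834 within mice. Named were, per mouse, the 5 clonotypes with the highest mean share and the 2 with the largest ratio in each direction among called clonotypes of at least 0.1% mean share; the 5 V and 3 J segments with the smallest p; and the TRBV13 and TRBV12 segments and the TRBJ1 and TRBJ2 clusters. Within those clusters, TRBJ2-7 and TRBJ1-1 were singled out after their values were seen. A floor of 3 counts over a library's total was 0.000608% to 0.0266%. Intervals and floors cover counting error only. Members and lists were chosen with earlier results of these data known.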

Additional observations from a re-analysis of the deposited data

Results flagged for a closer look

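In-frame CDR3s with a stop codon took a larger share of UMIs in mLN than in spleen in 3 of 3 WT mice and a smaller share in 3 of 3 KO mice, at 2488 UMIs a library. The difference was 0.0981 ± 0.0554 percentage points in WT and −0.232 ± 0.323 in KO, 0.330 apart (two-sided exact permutation test, p = 0.1, the smallest this design allows, adjusted p = 0.891 over 14 measures). The direction was opposite in every mouse of the 2 genotypes, which is what drew attention to it. In both genotypes these shares rest on few UMIs, and the cause was not tested. Groups of 3 libraries are too small for a test of single outlying samples.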

How the results depend on the processing

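Paired by mouse, no sign-flip test of 3 mice could reach p under 0.05, so these tests say nothing about stability. With no replicate block, the difference in richness stays 247.7 by construction, and the exact permutation of 6 libraries gave p = 0.6. Without downsampling the richness difference reversed to −12394. There the spleen libraries of replicates 3 and 4 held more UMIs than the mLN libraries (493287 against 68536 and 436652 against 99487). Counting each clonotype once reversed the differences in CDR3 length (0.0551), TRBD1 share (−0.267), out-of-frame share (0.0554), central cysteine (0.0149) and net charge (0.0198). Removing the 5 named clonotypes of each mouse, chosen after seeing the data, reversed net charge (0.0191), TRBJ1 share (0.0955), the hydrophobic pair (−0.252) and TRBV13-1 (0.0733, log2). The hydrophobic pair also reversed at 2488 UMIs (−0.0307), without downsampling (−0.00566), at the depth of the smaller library of each mouse (−0.0113) and without clonotypes of 1 UMI (−0.00955). The out-of-frame share reversed at 2488 UMIs (0.00563), and TRBV12-2 crossed 0 under TMM (−0.00943, log2), a scaling that moved all 11 named segments down, by −0.147 to −0.0825, so that this sign says nothing particular to TRBV12-2. Without clonotypes of 1 UMI, which were removed from the full libraries and thus unequally between organs, the richness difference was 50.1.

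Leaving out each mouse gave ranges of −0.621 to 0.160 for CDR3 length, −0.394 to 0.0637 for the V-J gap, −0.610 to 0.752 for the out-of-frame share, −0.0512 to 0.0403 for cysteine, −0.321 to 0.322 for the hydrophobic pair, −4.08 to 1.08 for TRBJ1, −0.211 to −0.0152 for net charge, −6.87 to 88.3 for the effective number, −0.44 to 0.0280 for TRBV13-1 and −0.15 to 0.33 for TRBV12-2. The richness difference ranged from 141.8 to 327.2, and the Morisita-Horn overlap from 0.569 to 0.759.

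The share of clonotypes differing was 13.4% at 2488 UMIs and 38.3% with at least 20 UMIs, against 25.1%. It was 36.2% without downsampling, where replicate 4 (43.7%) and not replicate 1 (34.1%) had the highest share and replicate 3 had 30.9%, and 21.8% to 28.8% when a mouse was left out. The number of J segments called was 1 with DESeq2 and 0 to 1 when a mouse was left out, where TRBJ1-1 was called without replicate 1 (smallest edgeR adjusted p 0.000770). The cause of these changes was not tested. Removing clonotypes 1 substitution from one at least 20 times larger, also chosen after seeing the data, reversed no difference. The number of V segments called was 0 under each of the alternatives run, at the lowest edgeR adjusted p of 0.0564 by clonotypes per segment. In-frame clonotypes alone give no value for the out-of-frame share or the stop-codon share.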
